A study of Arabidopsis thaliana with 12 samples.

Results

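The flowering-time genes AGL19, GI, SMZ, SNZ and FD of Arabidopsis thaliana were followed in seedlings lacking 1 or both of 2 opposing chromatin regulators. Each was read from its 1 probe set that carries no other gene name, so that 5 of the 13356 genes with such a probe set are described. They were chosen for their role in flowering, with earlier results of these data known. Total RNA of whole seedlings, 14 days old and grown at 22°C in 16 h light and 8 h dark, was hybridised to 12 Affymetrix ATH1 arrays. The 4 genotypes, with 3 biological replicates each, were the mutant of both genes (brm-1 clf-29), the single mutant brm-1, which carries a T-DNA insertion described as a null allele of BRM, an ATPase that remodels nucleosomes, the single mutant clf-29, which carries a T-DNA insertion in CLF, a Polycomb enzyme that methylates lysine 27 of histone H3 (H3K27me3), and wild type Col, the background of all the mutants. Each mutation was represented by 1 allele, and probe sets of BRM and CLF were not among those analysed by gene, so the loss of either transcript was not checked.

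Flowering in Arabidopsis is timed by day length, cold, age and an internal programme, and these inputs meet at a few genes whose products start flower formation at the shoot tip. GI acts early in the day length pathway: its protein is part of the circadian clock output and promotes transcription of CONSTANS, an activator of the mobile flowering signal FT. SMZ and SNZ are closely related transcription factors of the AP2 type that repress flowering, SMZ by repressing FT, and both are targets of the microRNA miR172. FD is a bZIP transcription factor of the shoot apex, with which the FT protein acts to switch on floral genes. AGL19 is a MADS-box transcription factor that promotes flowering, is induced by prolonged cold, and is known as a gene that Polycomb proteins keep silent in plants that have not been cold-treated. In the study's own ChIP-seq lists, SMZ is listed with more H3K27me3 in brm-1 than in Col. It is listed again among genes where the mark is lower in brm-1 clf-29 than in brm-1. The paper also names AGL24 as a flowering gene with more of the mark in brm-1. By qRT-PCR it reported a clear decrease in brm-1 of AGL24 but not of SMZ. The arrays ask whether the transcripts of such genes differ between the same genotypes.

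Values are log2 MAS5 signals, in which 1 unit is a 2-fold difference. Background was read from 27 probe sets for Bacillus subtilis control transcripts: their 324 values had a median of 2.79 and a 95th percentile of 4.71, and the percentile of single arrays lay between 4.04 and 5.04. A gene was called when its limma p, adjusted by the Benjamini-Hochberg method over all 13356 genes, was under 0.05. In each of the 6 genotype pairs, arrays with the same replicate number deviated together from their genotype means. The correlation over 6678 brighter genes was between 0.20 and 0.71. Deviations within a genotype cancel out, so a shared shift of replicate 3 alone would also make replicates 1 and 2 correlate. Arrays with different numbers were not compared, so a pairing of replicates 1 and 2 is not shown. Replicate 3 arrays shared most, with correlations between 0.44 and 0.71, and member results are therefore also given with the replicate number as a block and for replicates 1 and 2 alone. Leaf markers (RCA and LHCB4.1, 14.2 to 14.7 on every array) and root markers (EXPA7 and EXPA18, 7.40 to 9.86) were present in all 12 arrays and none was called in any comparison, but only 2 of 5 leaf markers and 2 of 11 root markers were measured. Both leaf markers had higher means than Col in every mutant. In brm-1 clf-29, brm-1 and clf-29 the differences were 0.34, 0.28 and 0.38 for RCA and 0.22, 0.30 and 0.17 for LHCB4.1. Of 9 flower markers 1, UFO, was measured, and it was called in clf-29 against Col. In whole seedlings, fewer cells of a type and less RNA per cell cannot be told apart.

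None of the 5 genes passed the test in any of the 6 comparisons between genotypes, in the interaction of the 2 mutations or in the F test over the 4 genotypes. AGL19 came nearest, in brm-1 clf-29 against Col, and it passed there once the replicate block was fitted, as did SMZ in clf-29 against brm-1. GI varied least. By its mean SNZ was lowest in brm-1 clf-29 and in clf-29, though each was under Col mostly through 1 replicate. FD was lowest in clf-29.

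**Figure D1:**
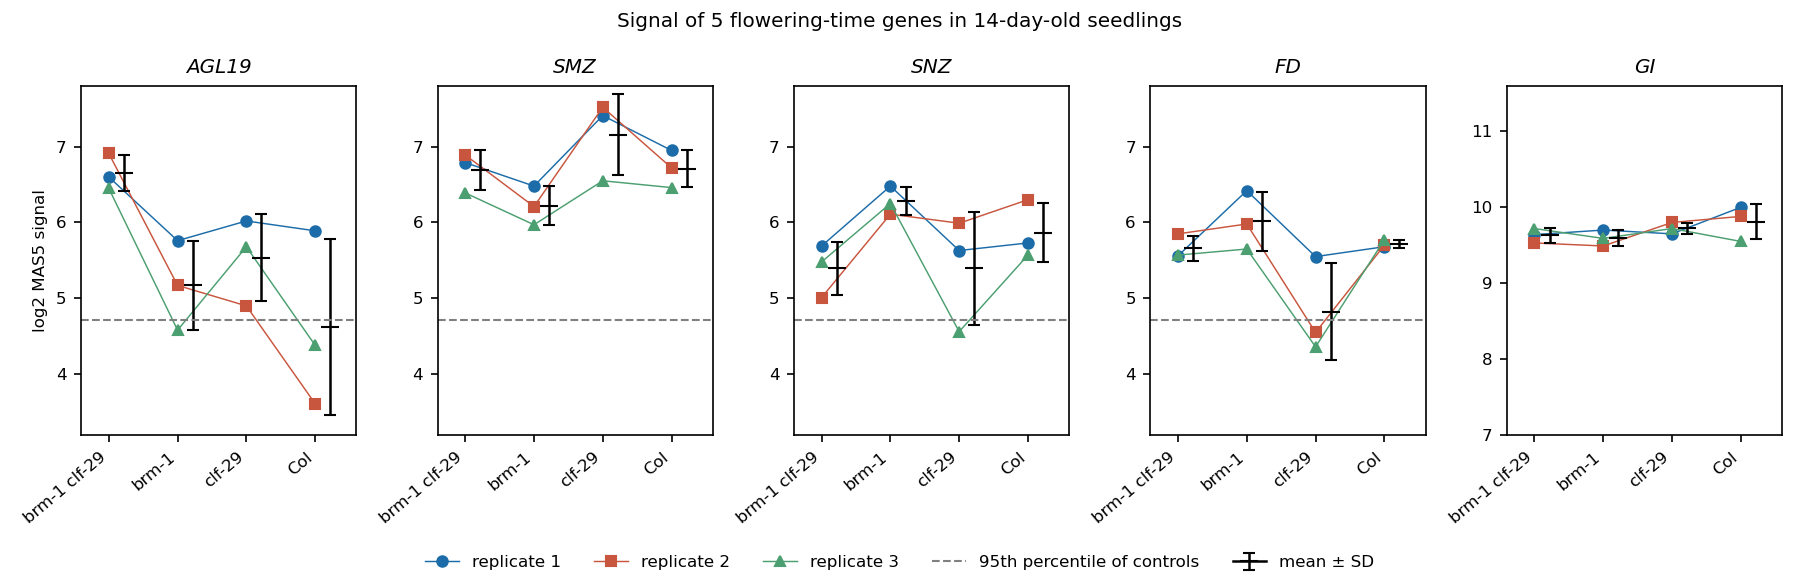
Log2 MAS5 signal of the 5 genes (1 panel each) in, from the left, brm-1 clf-29, the single mutants brm-1 and clf-29, and Col. Coloured symbols are single arrays, joined by replicate number; black bars are the mean ± SD of 3 arrays; the dashed line is the 95th percentile of the bacterial control values (4.71). The GI panel has the same scale length but a higher range. AGL19 is above 6.4 on all 3 brm-1 clf-29 arrays and under the dashed line on 2 Col arrays.

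AGL19 (AT4G22950) gave 6.60, 6.91 and 6.45 in brm-1 clf-29 (replicates 1, 2 and 3), against 5.76, 5.17 and 4.58 in brm-1, 6.02, 4.90 and 5.68 in clf-29, and 5.89, 3.61 and 4.38 in Col. All 3 brm-1 clf-29 arrays were above every other array of the series. The signal passed the background percentile on 3 of 3 arrays in brm-1 clf-29, 2 of 3 in brm-1, 3 of 3 in clf-29 and 1 of 3 in Col. The genotype means were 6.65 ± 0.23 in brm-1 clf-29, 5.17 ± 0.59 in brm-1, 5.53 ± 0.57 in clf-29 and 4.63 ± 1.16 in Col (SD, n = 3 each), and the brm-1 clf-29 mean was 3.85-fold over the background percentile. In this order, from brm-1 clf-29 down through clf-29 and brm-1 to Col, the arrays of clf-29 and brm-1 overlapped, as did those of brm-1 and Col.

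The difference of AGL19 between brm-1 clf-29 and Col was 2.03 ± 0.55 on the log2 scale (standard error of the limma fit, 95% interval 0.84 to 3.21). Its adjusted p of 0.0536 missed the threshold, for which a difference of 2.07 would have been needed at this standard error. Within replicates the difference was 0.71, 3.30 and 2.07, so its sign was the same in all 3 while its size was not. With the replicate number as a block the limma adjusted p was 0.0165, and AGL19 was called. In replicates 1 and 2 alone the difference was 2.0 (limma adjusted p = 0.0942). The Col replicate 1 array, at 5.89, lay far above the other 2 Col arrays, and without it the difference was 2.66 (limma adjusted p = 0.0167), with both remaining Col arrays under the background percentile. As the Col mean was under it with all 3 arrays too, 2.03 and 2.66 are differences of fitted values and no measured fold. Taken against the percentile instead, the brm-1 clf-29 mean was 3.85-fold over it. That value is no lower bound of the difference from Col. Col replicate 1 lay above the percentile, and the difference within replicate 1 was 0.71. Leaving out brm-1 replicate 3, an array of neither genotype, also took AGL19 past the threshold (limma adjusted p = 0.0485), and over 22 alternative settings the adjusted p ran from 0.0165 to 0.189, with a call in 9.

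Against the single mutants AGL19 was higher in brm-1 clf-29 by 1.48 ± 0.55 over brm-1 (95% interval 0.30 to 2.67, limma adjusted p = 0.372) and by 1.12 ± 0.55 over clf-29 (-0.07 to 2.31, limma adjusted p = 0.422). In neither comparison did the arrays overlap. Against Col, the differences of the single mutants were 0.54 ± 0.55 for brm-1 and 0.91 ± 0.55 for clf-29, both with intervals that included 0. Both moved with single Col arrays: without Col replicate 1 they were 1.18 for brm-1 and 1.54 for clf-29, and without Col replicate 2 they were 0.04 and 0.40 in the same order, none of them called. Within replicates, brm-1 differed from Col by -0.13, 1.56 and 0.20, and clf-29 by 0.13, 1.29 and 1.30. The interaction, which asks whether loss of BRM shifts AGL19 by a different amount in clf-29 than in Col, was 0.58 ± 0.77 (95% interval -1.10 to 2.26), so a difference well above the sum of the 2 single ones and one well below it both remained within the error.

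SMZ (AT3G54990) gave 6.79, 6.89 and 6.39 in brm-1 clf-29, 6.48, 6.21 and 5.97 in brm-1, 7.41, 7.52 and 6.55 in clf-29, and 6.95, 6.72 and 6.46 in Col. Every array was above the background percentile. The means were 6.69 ± 0.26 in brm-1 clf-29, 6.22 ± 0.26 in brm-1, 7.16 ± 0.53 in clf-29 and 6.71 ± 0.25 in Col (SD, n = 3 each), which places clf-29 at the top and brm-1 at the bottom, with neighbours in that order overlapping. Replicate 3 was the lowest array of SMZ in all 4 genotypes, under the mean of replicates 1 and 2 by between 0.38 (brm-1 and Col) and 0.92 (clf-29).

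Between the 2 single mutants SMZ was higher in clf-29 than in brm-1 by 0.94 ± 0.28 (95% interval 0.32 to 1.56, limma adjusted p = 0.113, difference needed to pass 1.16). The arrays did not overlap, although the lowest clf-29 array (6.55) and the highest brm-1 array (6.48) nearly met. Compared within replicates the difference was 0.93, 1.31 and 0.58. With the replicate block SMZ was called (limma adjusted p = 0.0222), and in replicates 1 and 2 alone as well (difference 1.12, limma adjusted p = 0.0164). Without clf-29 replicate 3, the lowest of that genotype, the difference was 1.24 (limma adjusted p = 0.0273), and no other array left out by itself gave a call.

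Each single mutant differed from Col in SMZ by a part of that distance, in opposite directions. In brm-1 the difference from Col was -0.49 ± 0.28 (95% interval -1.11 to 0.13, limma adjusted p = 0.517), and it was nearly the same in each replicate, at -0.47, -0.51 and -0.49. The paper's qRT-PCR saw no clear decrease of SMZ in brm-1. For clf-29 it was 0.45 ± 0.28 (-0.17 to 1.07) and uneven, at 0.46, 0.80 and 0.09 within replicates. In brm-1 clf-29 SMZ was at the Col level, with a difference of -0.02 ± 0.28 (-0.64 to 0.60), whose sign turned with the scaling (0.07 after quantile normalization, 0.08 after median centring of the arrays). Loss of BRM had a difference of -0.47 ± 0.28 in clf-29 plants, close to the -0.49 in Col, and the interaction was 0.02 ± 0.40 (95% interval -0.85 to 0.89, -0.02 after quantile normalization and -0.03 with centring). Neither these 4 differences nor the interaction passed the test, with the replicate block or without.

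SNZ (AT2G39250) ran in another order than its relative SMZ. It gave 5.69, 5.01 and 5.48 in brm-1 clf-29, 6.48, 6.11 and 6.25 in brm-1, 5.63, 5.99 and 4.56 in clf-29, and 5.73, 6.30 and 5.57 in Col. One array, clf-29 replicate 3, was under the background percentile. Means were 5.39 ± 0.35 in brm-1 clf-29, 6.28 ± 0.19 in brm-1, 5.39 ± 0.74 in clf-29 and 5.87 ± 0.38 in Col (SD, n = 3 each). The highest genotype, brm-1, was thus the one in which SMZ was lowest. All 3 brm-1 arrays were above all arrays of brm-1 clf-29 and of clf-29, but they overlapped with Col, and Col overlapped with both genotypes that carry clf-29.

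The difference of SNZ between brm-1 clf-29 and brm-1 was -0.89 ± 0.39 (95% interval -1.74 to -0.03, limma adjusted p = 0.492). Its 3 values within replicates were -0.79, -1.10 and -0.77. For clf-29 against brm-1 the difference and its error were the same (limma adjusted p = 0.324), but the replicates ranged from -0.12 to -1.69, and in replicates 1 and 2 alone the difference was -0.48. Against Col, SNZ differed by -0.47 ± 0.39 in brm-1 clf-29, 0.41 ± 0.39 in brm-1 and -0.47 ± 0.39 in clf-29, all with intervals that included 0. The clf-29 difference rested on clf-29 replicate 3, the array under background, without which it was -0.06, and it was -0.21 in replicates 1 and 2 alone. Within replicates the brm-1 clf-29 difference from Col was -0.04, -1.29 and -0.09, so that it came mostly from replicate 2. Neither the replicate block nor any other alternative gave a call for SNZ.

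FD (AT4G35900) gave 5.56, 5.85 and 5.57 in brm-1 clf-29, 6.42, 5.98 and 5.65 in brm-1, 5.55, 4.55 and 4.36 in clf-29, and 5.68, 5.70 and 5.77 in Col. The clf-29 arrays were the 3 lowest of the 12, and 2 of them were under the background percentile. Means were 5.66 ± 0.16 in brm-1 clf-29, 6.02 ± 0.39 in brm-1, 4.82 ± 0.64 in clf-29 and 5.72 ± 0.05 in Col (SD, n = 3 each). The arrays of brm-1, Col and brm-1 clf-29 overlapped with each other.

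The difference of FD between clf-29 and brm-1, -1.20 ± 0.37 (95% interval -1.99 to -0.40, limma adjusted p = 0.121), was its largest, and it was negative in each replicate, at -0.87, -1.43 and -1.29. Without clf-29 replicate 1, the 1 array of that genotype above background, it was -1.56 (limma adjusted p = 0.0496), the only setting that called FD. Against Col the clf-29 difference was -0.90 ± 0.37 (-1.69 to -0.10, limma adjusted p = 0.35), of which replicate 1 showed -0.13 and replicates 2 and 3 showed -1.15 and -1.41. In brm-1 clf-29 FD was above clf-29 by 0.84 ± 0.37 (0.04 to 1.64, limma adjusted p = 0.359). There the 2 groups of arrays were apart by the narrowest step, 5.56 against 5.55 in replicate 1, while replicates 2 and 3 differed by 1.30 and 1.21. From Col, brm-1 clf-29 differed by -0.06 ± 0.37 (-0.85 to 0.74), a sign that turned to 0.04 with each array centred on its median.

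GI (AT1G22770) was the brightest probe set of the 5 and varied least. It gave 9.64, 9.53 and 9.72 in brm-1 clf-29, 9.70, 9.49 and 9.59 in brm-1, 9.65, 9.80 and 9.72 in clf-29, and 10.00, 9.88 and 9.55 in Col. The arrays of all 4 genotypes overlapped, and the means of 9.63 ± 0.10 in brm-1 clf-29, 9.59 ± 0.11 in brm-1, 9.72 ± 0.08 in clf-29 and 9.81 ± 0.23 in Col (SD, n = 3 each) spanned 0.22.

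The 95% intervals of GI were the narrowest of the 5. The largest difference, -0.22 ± 0.12 in brm-1 against Col, had an interval of -0.47 to 0.04 (limma adjusted p = 0.484), and the 6 intervals together reached no lower than -0.47 and no higher than 0.39. In this fit over all 12 arrays they stayed within the 1.5-fold by which the study called genes. The differences from Col changed with the replicates used: in replicates 1 and 2 alone they were -0.36 in brm-1 clf-29 (limma adjusted p = 0.0624) and -0.35 in brm-1 (limma adjusted p = 0.114), while replicate 3 gave 0.17 and 0.04 in the same order. Without Col replicate 3 they were -0.31 in brm-1 clf-29 and -0.35 in brm-1, and without Col replicate 1 they were -0.08 in brm-1 clf-29 and -0.12 in brm-1. A difference of between 0.45 and 0.67 would have passed the test for GI, depending on the comparison, against 2.07 to 3.09 for AGL19. GI is a transcript that cycles through the day, and the hour at which the seedlings were collected is not given in the sources used here.

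**Figure D2:**
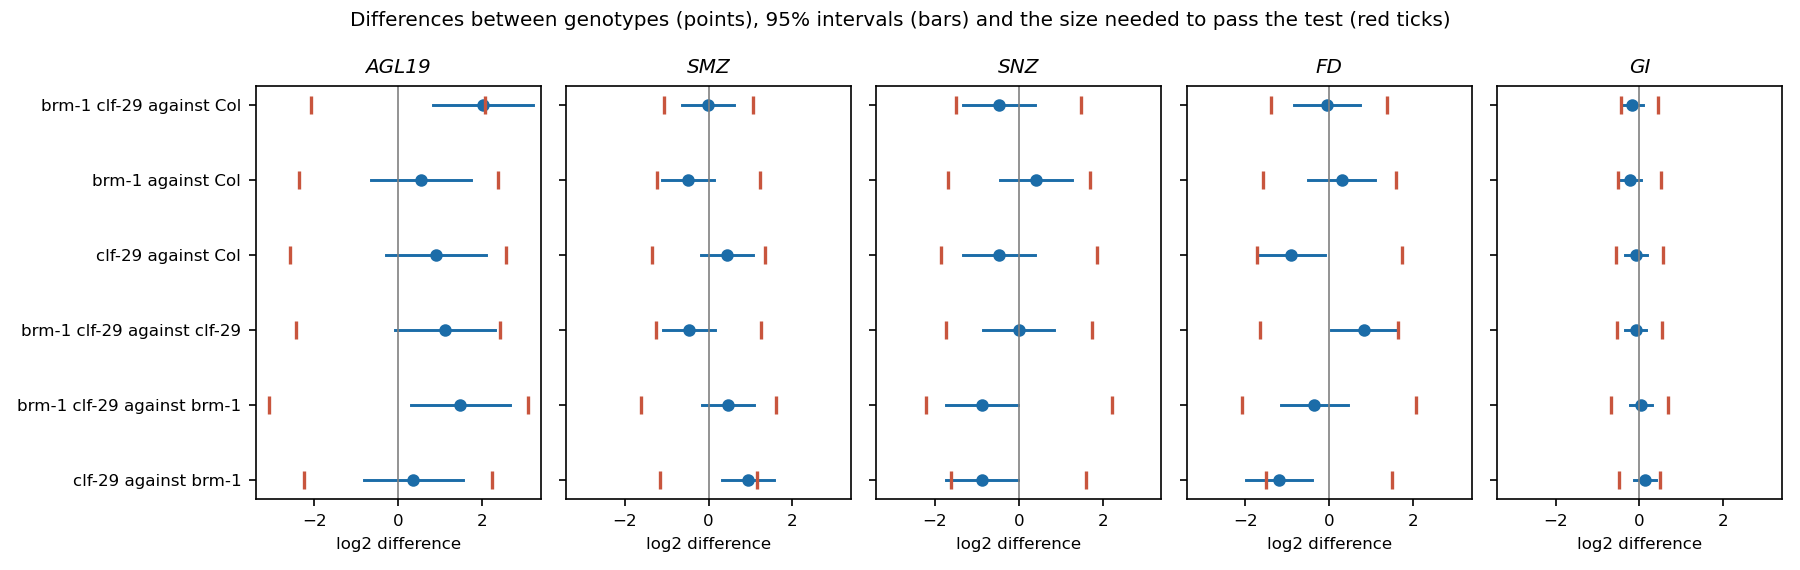
Log2 differences of the 5 genes (1 panel each) in the 6 comparisons, first genotype minus second. Points are the estimates and bars their 95% intervals from the limma fit; the red ticks mark the size, in either direction, at which the adjusted p would have been under 0.05. The AGL19 point for brm-1 clf-29 against Col (2.03) lies beside its tick (2.07), and no point lies beyond one.

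The counts of members that stood apart are set beside the shares of all genes, comparison by comparison. With only 5 members, whether these counts differ from the shares or between comparisons was not tested. In brm-1 clf-29 against Col, where 4.99% of all genes were called (10.4% with the replicate block), 0 of 5 members were called (1, AGL19, with the block), and 1 had an unadjusted limma p under 0.05. Of all 13356 genes, 2445 had such an unadjusted p. AGL19 was also the 1 member whose arrays did not overlap, as those of 23.8% of all genes did not, and the 1 past 1.5-fold, as 28% of all genes were. The median difference of the 5 was -0.06, beside -0.02 over all genes.

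For brm-1 against Col, 1.86% of all genes were called (4.78% with the block) and 0 of 5 members. No member had arrays that did not overlap (20.6% of all genes) or was past 1.5-fold (23.9% of all genes), and none had an unadjusted limma p under 0.05 (1746 of 13356 genes). The 5 differences ran from -0.49 (SMZ) to 0.54 (AGL19), with a median of 0.30, beside -0.04 over all genes.

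For clf-29 against Col, 0.943% of all genes were called (3.48% with the block) and 0 of 5 members, with 1 unadjusted limma p under 0.05 (1603 of 13356 genes). FD was the 1 member whose arrays did not overlap (18% of all genes), and FD and AGL19 were past 1.5-fold (23.7% of all genes), FD lower and AGL19 higher. The members' median was -0.09, beside 0.00 over all genes.

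In brm-1 clf-29 against clf-29, which reads loss of BRM where CLF is also lost, 1.47% of all genes were called (4.07% with the block) and 0 of 5 members, with 1 unadjusted limma p under 0.05 (1723 of 13356 genes). AGL19 and FD did not overlap (16% of all genes) and were past 1.5-fold (24.5%), both higher in brm-1 clf-29, and the members' median was 0.00, beside -0.01 over all genes. In brm-1 clf-29 against brm-1, which reads loss of CLF where BRM is also lost, 0.217% of all genes were called (1.65% with the block) and 0 of 5 members, with 2 unadjusted limma p under 0.05 (1305 of 13356 genes). AGL19, higher, and SNZ, lower, did not overlap (13.6% of all genes) and were past 1.5-fold (23.2%), and the members' median was 0.04, beside 0.01 over all genes.

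The direct comparison of the single mutants, clf-29 against brm-1, held the most members that stood apart. SMZ was higher in clf-29 and SNZ and FD were lower, and for these 3 of the 5 the arrays did not overlap (18% of all genes), the difference was past 1.5-fold (26% of all genes) and the unadjusted limma p was under 0.05 (1940 of 13356 genes). Over all genes 2.82% were called (6.74% with the block), and 0 of 5 members (1, SMZ, with the block). The members' median was 0.13, beside 0.02 over all genes, as the 2 members that were lower stood against 3 that were higher. The 6 comparisons share arrays, so that the same low clf-29 values of FD enter 3 of them.

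Over the 4 genotypes at once, the F test called 4.66% of all genes and 0 of 5 members. The unadjusted p of this limma test was 0.0181 for AGL19, 0.0359 for FD and 0.0429 for SMZ, and the adjusted p ran from 0.159 (AGL19) to 0.624 (GI). How many of all genes had such an unadjusted p in the F test was not counted. The interaction called 0% of all genes in the limma fit, with the block too, while 754 genes had an unadjusted p under 0.05, none of the 5 among them.

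**Figure D3:**
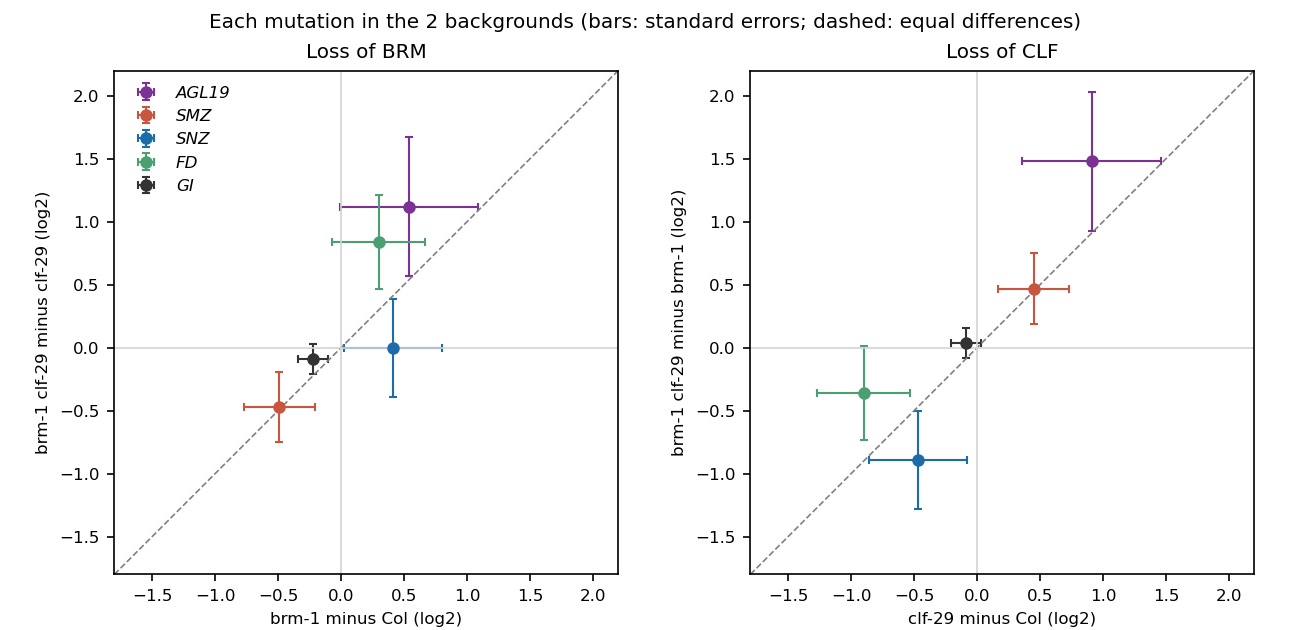
Differences of the 5 genes for loss of BRM (left; in clf-29 on the vertical axis, in Col on the horizontal axis) and for loss of CLF (right; in brm-1 on the vertical axis, in Col on the horizontal axis), in log2 units with standard errors of the limma fit as bars. The dashed line marks equal differences. SMZ lies on the line in both panels (-0.47 and -0.49 at the left, 0.47 and 0.45 at the right), and AGL19 lies above it in both by 0.58, within the errors.

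Signal close to background limits what AGL19, SNZ and FD can show. Of the 12 arrays, 3 lay under the background percentile for AGL19, 1 for SNZ and 2 for FD, and 0 for SMZ and GI. Over the 4 genotypes, means of SNZ were between 1.61- and 2.97-fold over the percentile and those of FD between 1.08- and 2.47-fold. The pooled SD within genotypes was 0.72 for AGL19, 0.46 for SNZ, 0.38 for FD and 0.35 for SMZ, against 0.14 for GI.

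**Figure D4:**
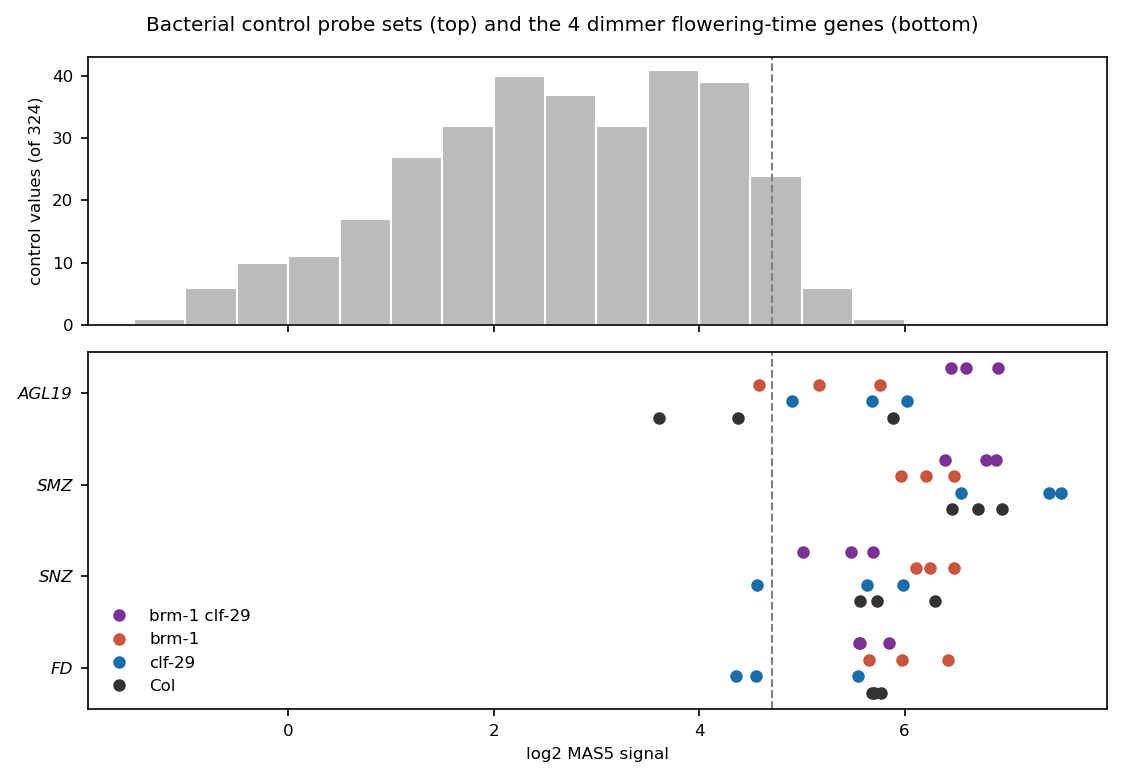
Top, the 324 log2 values of the bacterial control probe sets in bins of 0.5; bottom, the 12 arrays of AGL19, SMZ, SNZ and FD, coloured by genotype, on the same log2 axis. The dashed line is the 95th percentile of the control values (4.71). In Col 2 AGL19 arrays, in brm-1 1 AGL19 array, and in clf-29 2 FD arrays and 1 SNZ array are left of the line; all 12 SMZ arrays are right of it.

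Of 85 further genes of the flowering pathways that were looked for, 9 had a probe set with 1 gene name: ATC, UFO, AGL24, AGL42, AGL71, AGL72, AGL18, FY and LD. Clock and day length genes (0 of 26), other AP2-type repressors (0 of 6) and SPL genes of the age pathway (0 of 5) were not analysed here, so that GI, SMZ and SNZ stand without their pathway partners. Of the 9, none rose and AGL24 fell in brm-1 against Col, UFO rose in clf-29 against Col, AGL24 fell in brm-1 clf-29 against clf-29 but rose in brm-1 clf-29 against brm-1, and AGL24 and ATC rose in clf-29 against brm-1. None was called in brm-1 clf-29 against Col. There AGL24 differed by -0.75 ± 0.20 (limma adjusted p = 0.0537) and UFO by 2.63 ± 0.76 (limma adjusted p = 0.0708). The UFO means of both genotypes were under background. The call of UFO, under background in Col, held in 11 of 21 alternative settings, that of AGL24 in brm-1 clf-29 against brm-1 in 18 of 21, and its other 3 calls in all 21. FY and LD, of the autonomous pathway, were called nowhere, with differences between -0.29 (LD in brm-1 against Col) and 0.37 (LD in clf-29 against brm-1).

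ATC, a relative of FT and TFL1 that represses flowering, gave 7.93, 7.55 and 7.24 in brm-1 clf-29, 6.81, 6.38 and 7.60 in brm-1, 8.92, 8.97 and 9.20 in clf-29, and 7.07, 7.41 and 9.12 in Col. It rose by 2.1 ± 0.45 in clf-29 against brm-1 (limma adjusted p = 0.0258), the same comparison and direction as the difference of SMZ. The call held in 16 of 22 alternative settings (adjusted p from 8.84e-05 to 0.103) and was lost without brm-1 replicate 1 or 2, without any single clf-29 array and without the eBayes trend. Its replicate 3 array in Col was at the clf-29 level, and the clf-29 difference from Col, 1.16 ± 0.45, did not pass (limma adjusted p = 0.31).

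AGL24 is, like AGL19, a MADS-box gene that promotes flowering. AGL24 averaged 6.69 in brm-1 clf-29, 5.27 in brm-1, 8.13 in clf-29 and 7.44 in Col. It was higher in clf-29 than in brm-1 by 2.86 ± 0.20 (limma adjusted p = 2.48e-05), where SMZ differed by 0.94 and AGL19 by 0.36 ± 0.55. Most of that distance was the fall in brm-1, -2.17 ± 0.20 from Col (limma adjusted p = 0.000197). The clf-29 difference from Col, 0.69 ± 0.20, was not called (limma adjusted p = 0.168).

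The genes whose signal followed each member most closely over the 12 arrays were ranked by Pearson's r among 10452 genes with a genotype mean above background. These r are the highest of many and describe 12 arrays, of which those with the same replicate number deviate together. For AGL19 they were AT1G06100 (r = 0.90), SP1L3 (0.89) and AT4G31310 (0.88), and AT1G06100 averaged 7.65 in brm-1 clf-29, 6.66 in brm-1, 6.83 in clf-29 and 6.55 in Col. For SMZ they were AT1G34570 (0.94), AT5G43450 (0.93) and the beta-glucosidase gene BGLU40 (0.93). All 3 were highest in clf-29 and lowest in brm-1, as SMZ was. AT1G34570, the closest, averaged 7.05 in brm-1 clf-29, 6.25 in brm-1, 7.42 in clf-29 and 6.90 in Col.

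The closest to SNZ were AT2G46220 (0.90), AT4G35750 (0.90) and AT2G25190 (0.85). Those closest to FD were AT4G08280 (0.90), AT2G04410 (0.90) and RAD5 (0.90), of which RAD5 averaged 3.45 in clf-29, under background there, against 5.50 in brm-1 clf-29, 5.23 in brm-1 and 5.21 in Col. Those closest to GI were Hsp70-2 (0.90), a heat shock protein gene, AT1G75190 (0.86) and AT3G12590 (0.85). Once the mean of each replicate number was subtracted, AT1G06100 was still among the first 3 for AGL19, AT1G34570 for SMZ, and Hsp70-2 and AT1G75190 for GI, while the other genes named here, all 3 of SNZ and all 3 of FD among them, were replaced.

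The nearest measured genes on either side of each member were also compared. None of the 10 neighbours was called in any of the 7 comparisons, in which at most 4.99% of all genes were called. As no member was called in them either, this cannot show whether a difference extends along the chromosome. Beside AGL19, AT4G22940 was under background in all 4 genotype means, as was AT2G39240 beside SNZ. On the other side of AGL19, AT4G22960 averaged 6.07 ± 0.22 in brm-1 clf-29, 5.87 ± 0.55 in brm-1, 5.40 ± 0.19 in clf-29 and 5.90 ± 0.32 in Col (SD, n = 3 each). Its mean was highest in brm-1 clf-29, by 0.67 over clf-29 (limma adjusted p = 0.438). It was only 0.17 over Col (limma adjusted p = 0.862) and 0.19 over brm-1 (limma adjusted p = 0.903), and the arrays overlapped in both. Unlike AGL19 it was lowest in clf-29 and not in Col.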

How the data were processed

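The authors deposited log2 MAS5 signals, which per the labels they computed with MAS5 and affy, in versions not given in the sources used here. Each array had been scaled to a 2% trimmed mean of 500.0, and array medians lay between 7.54 and 7.66. Of 22810 probe sets, 13513 had 1 gene name, 503 several and 8794 none here. Names were updated through RefSeq's table (TAIR10.1), in which 13436 matched. Where a gene had several such probe sets (146 genes), the brightest over the 12 arrays stood for it. The rule for named genes was the 5 members, their 3 likest genes, measured genes of the flowering and marker lists and the nearest neighbours.

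Genotypes and replicate numbers came from the sample titles. All 12 arrays entered 1 limma fit (limma 3.58.1, R 4.3.3, lmFit with a mean for each genotype and 8 residual degrees of freedom, trended eBayes, two-sided tests), checked on simulated data. The simulated noise was independent between arrays, so that check does not cover deviations shared by arrays with the same replicate number. The replicate number was used as a block in an alternative, since all 18 same-numbered pairs correlated over 0.1 in their deviations. Other alternatives were quantile normalization, median centring, an offset of 16, eBayes without trend or robust, fewer genes or all probe sets, fewer arrays and a replicate 3 term. The number of arrays limits the precision. Members and lists were chosen with earlier results of these data known. No sequences are shown.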

Additional observations from a re-analysis of the deposited data

How the results depend on the processing

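The count of members called was 0 in every comparison and moved to at most 1. For brm-1 clf-29 against Col it was 1 (AGL19) with quantile normalization, centring on the array median, an offset of 16, robust eBayes, the replicate block, a replicate 3 term and every probe set, and 0 to 1 with single arrays left out. The limma adjusted p of AGL19 was 0.049 with quantile normalization, 0.0396 with centring and 0.0165 with the replicate block. For clf-29 against brm-1 the count was 1 (SMZ) with the replicate block (limma adjusted p = 0.0222), a replicate 3 term and replicates 1 and 2 alone, and 0 to 1 with single arrays left out (SMZ without clf-29 replicate 3, FD without clf-29 replicate 1). For the F test it was 1 with a replicate 3 term and with replicates 1 and 2 alone. The replicate block, which treats arrays as paired by number, changed no other member call.

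Of 750 member differences under alternatives, 714 kept their sign and their side of the threshold, 14 passed it and 22 changed sign, all of these uncalled. A further 22 belong to SNZ in brm-1 clf-29 against clf-29, whose difference of 0.00 has no sign: it ran from -0.46 (replicates 1 and 2 alone) to 0.30 (without clf-29 replicate 2) and was never called. With replicates 1 and 2 alone they were AGL19 in clf-29 against brm-1 (0.00), GI in brm-1 clf-29 against brm-1 (-0.01), SMZ (0.00) and FD (0.01) in brm-1 clf-29 against Col, and the SMZ interaction (-0.14). With quantile normalization they were SMZ in brm-1 clf-29 against Col (0.07) and its interaction (-0.02), with centring these (0.08 and -0.03) and FD in brm-1 clf-29 against Col (0.04), and with the offset the SMZ interaction (-0.01). With single arrays left out the ranges were -0.14 to 0.13 for SMZ in brm-1 clf-29 against Col and -0.28 to 0.20 for its interaction; they were -0.06 to 1.08 for the AGL19 interaction, -0.22 to 0.01 for GI in clf-29 against Col and -0.01 to 0.09 for GI in brm-1 clf-29 against brm-1. The cause was not tested. With genes under the median gene left out, AGL19, SMZ, SNZ and FD were no longer tested and only GI gave values. The same alternatives for AGL24, ATC and UFO were chosen after seeing the data, and their calls were lost mostly with single arrays left out: UFO without any single clf-29 array, Col replicate 1 or 2, brm-1 replicate 1 or 2, or brm-1 clf-29 replicate 1 or 2, and without the eBayes trend; AGL24 in brm-1 clf-29 against brm-1 without brm-1 replicate 1 or 2 or brm-1 clf-29 replicate 1. Background signal limits AGL19 in Col and FD in clf-29, where most arrays lay under the control percentile.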
